A study of Mus musculus with 6 samples.

Results

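Lysosome genes were followed in cultured mouse airway basal cells: the subunits and accessory proteins of the vacuolar H+-ATPase (V-ATPase), the cathepsins, a set of lysosomal membrane proteins and the transcription factors Tfeb and Tfe3. The genes were taken by name: every symbol that starts with Atp6v or Atp6ap, every cathepsin symbol made of Cts and a single letter, Lamp1, Lamp2, Tfeb, Tfe3, Mcoln1 and Scarb2. This rule found 52 of the 56748 genes in the table, and it used no measured value. The lysosome genes and the lists of related genes were, however, chosen with earlier results of these data known. The rule also takes in 2 pseudogenes of Atp6v0c. RNA was sequenced from primary airway basal stem cells of wild-type mouse tracheas on day 4 of culture. In 3 libraries the cells had been given UK-5099, which blocks the carrier that brings pyruvate into mitochondria. Cells of the other 3 libraries had received Y-27632 together with DMH-1, which inhibits type I receptors for BMP, and A8301, which inhibits those for TGF-beta. This second group is called the 3-inhibitor group below. No untreated cells are among the samples used here, and every difference therefore sets one inhibitor condition against the other. The labels do not say whether Y-27632 was also present with UK-5099, nor whether each replicate was a separate animal or culture. The p-values therefore measure only the spread between these libraries, which may be technical.

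Lysosomes are the acidic organelles in which cells break down proteins, lipids and glycans. The V-ATPase acidifies them: its cytosolic V1 sector hydrolyses ATP and turns a rotor, which drives protons through the V0 sector in the membrane. Cathepsins are the main lysosomal proteases, Lamp1 and Lamp2 are the abundant glycoproteins that line the lysosomal membrane, and TFEB and TFE3 belong to the MiT/TFE family of transcription factors, which bind E-box-type elements with the core CACGTG in the promoters of lysosome genes. In airway epithelium the V-ATPase is also known for proton secretion by ionocytes, rare cells whose pumps carry particular subunit isoforms.

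With UK-5099, 23 of the 36 lysosome genes that could be tested were lower than with the 3 inhibitors, 4 were higher and 9 did not pass the test. Without the pseudogene Atp6v0c-ps2, whose reads cannot be told from those of its parent, 22 of 35 were lower and 4 higher. Cathepsins, membrane-sector subunits, the accessory subunits, Lamp1 and both transcription factors were among the lower genes, and Atp6v1a and Atp6v1b2, the genes of the ring that hydrolyses ATP, were among the higher ones. The test was limma on log2(normalized count + 1) over the 15704 genes whose mean was 10 normalized counts or more, with a Benjamini-Hochberg adjusted p under 0.05. Among the higher genes, Atp6v0a4 reached this mean only through the UK-5099 group. A normalized count is a gene's read count divided by a size factor of its library, and all log2 differences are UK-5099 minus 3 inhibitors. Lower genes made up 63.9% of the lysosome genes tested and 26.6% of all genes tested, and higher genes made up 11.1% and 27.2%. The other 16 genes were too low to test, 8 of them at 0 in every library, and all are named below. The median log2 difference was -0.21 over the lysosome genes and -0.00 over all genes tested. Most differences were small, as over the whole table: 19 of the 27 called lysosome genes, or 70.4%, differed by less than 1.5-fold, against 59.7% of all called genes, and 7 lysosome genes were at least 1.5-fold lower. The groups did not overlap for 30 of the 36 genes, or 83.3%, against 60.8% of all genes tested. In either direction, 27 of the 36 lysosome genes were called, and 53.8% of all genes tested. After centring every library on its median, 26 lysosome genes were lower and 4 higher, against 33.5% and 21.5% of all genes tested, and the share of higher genes among all calls moved from 50.6% to 39.1%. After upper-quartile rescaling 23 were lower and 4 higher, against 24.9% and 29.9% of all genes tested.

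The libraries held 19909589 to 27037795 gene reads. Markers of the labelled cell type were high in all of them: 6 airway basal cell genes summed to 255099 to 276371 normalized counts in the UK-5099 libraries and to 117079 to 128782 in the others, and 4 of them were higher and 1, Ngfr, lower. Markers of other states moved with the groups. Squamous genes summed to 175377 to 186955 against 34228 to 36719 (5 of 6 tested higher), and secretory cell genes to 6814 to 8583 against 46162 to 48739 (4 of 4 tested lower). Macrophages, which are rich in lysosomes, left little trace: none of 13 marker genes reached the level for testing, their sum was 3.71 to 6.10 normalized counts in the UK-5099 libraries and 13.7 to 34.0 with the 3 inhibitors, and Adgre1, C1qa, C1qb, C1qc, Marco and Tyrobp were at 0 in all 6 libraries. Lymphocyte markers summed to 0 to 6.10 against 0 to 2.68, fibroblast markers to 6.50 to 14.6 against 8.25 to 10.05, and those of neutrophils and mast cells to 20.3 to 29.7 against 30.4 to 42.3, with the 1 gene tested, Ly6g, lower. Of the latter, S100a9 and S100a8, too low to test, went the other way, with 42 and 12 reads under UK-5099 against 6 and 2. Xist was higher with UK-5099 (log2 difference 0.77) and the Y-linked genes Kdm5d, Eif2s3y, Ddx3y and Uty lower (-1.10, -0.91, -0.82 and -0.60), with the sex of the animals not stated. These were chosen after their values were seen, and 4 of the lysosome genes, Tfe3, Atp6ap1, Atp6ap2 and Lamp2, are on the X chromosome. UK-5099 replicate 3, the library with the fewest reads, gave the highest of the UK-5099 values for 24 of the 36 genes, or 66.7%, against 43.0% of all genes tested. Without it 24 lysosome genes were lower and 4 higher. Whether the shift in epithelial states or in sex-linked genes has a part in the lysosome results was not tested, and in bulk RNA fewer cells of a type and less RNA per cell cannot be told apart.

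Promoters of the lysosome genes were read for the letters that MiT/TFE factors bind, because Tfeb and Tfe3 are among the genes of the rule. Whether these factors have a part in the differences was not tested. RefSeq promoters (build GRCm38.p6, from 250 bases before to 50 bases after a gene's start) matched 39 of the 52 genes, with 46 promoters. The core CACGTG and the longer TCACGTGA, which contains the core, were searched. Both words read the same on both strands. TCACGTGA stood in 17.1% of 35 promoters of tested lysosome genes, in 1.83% of 13167 promoters of all genes tested, and in 0.974% of the 32851 promoters of the table. CACGTG stood in 28.6%, 9.78% and 7.15%. Since such elements are known from promoters of lysosome genes, higher shares in genes chosen by name could be foreseen. The shares say nothing about UK-5099. Of the 19 lower genes with a promoter in the table, 7 held CACGTG (Atp6v0b, Atp6v0d1, Ctsa, Ctsd, Ctsl, Lamp1 and Mcoln1), and 4 of these held TCACGTGA. Of 3 higher genes, Atp6v1a held TCACGTGA, and of 6 that did not pass, Atp6v0e held TCACGTGA and Ctsf CACGTG. A match is a description of the letters, and binding was not measured. The letters were found in promoters of lower genes, of a higher gene and of genes that did not pass.

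These stretches carry the matches, in capitals, with up to 40 bases on either side and at most 20 bases past the start; they are shown for 6 lower genes, of which Lamp1 and Atp6v0b hold only the core, and for Atp6v1a, which was higher, and Atp6v0e, which did not pass. Lamp1 (chr8:13159060-13159180, plus strand) holds 4 cores, the nearest beginning 15 bases before its start. Ctsd (chr7:142387879-142387966, minus strand), Ctsa (chr2:164833720-164833792, plus strand), Mcoln1 (chr8:3500408-3500519, plus strand), Atp6v0d1 (chr8:105566045-105566108, minus strand), Atp6v0b (chr4:117887310-117887405, minus strand), Atp6v1a (chr16:44139344-44139431, minus strand) and Atp6v0e (chr17:26676358-26676415, plus strand) show 1 or 2 each. A further core in the Ctsd promoter, beginning 245 bases before the start, lies outside the stretch shown.
Lamp1: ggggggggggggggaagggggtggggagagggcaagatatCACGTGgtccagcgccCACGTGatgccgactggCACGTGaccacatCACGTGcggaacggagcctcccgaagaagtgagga
Ctsd: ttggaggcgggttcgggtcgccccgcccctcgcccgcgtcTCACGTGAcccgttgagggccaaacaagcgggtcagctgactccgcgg
Ctsa: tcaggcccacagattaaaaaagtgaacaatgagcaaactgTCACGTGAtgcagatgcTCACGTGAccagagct
Mcoln1: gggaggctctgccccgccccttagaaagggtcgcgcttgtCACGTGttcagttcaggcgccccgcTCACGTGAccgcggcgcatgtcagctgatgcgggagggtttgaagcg
Atp6v0b: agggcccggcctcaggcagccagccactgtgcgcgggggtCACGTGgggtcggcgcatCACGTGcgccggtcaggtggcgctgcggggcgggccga
Atp6v0d1: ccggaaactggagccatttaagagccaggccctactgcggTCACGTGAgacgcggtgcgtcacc
Atp6v1a: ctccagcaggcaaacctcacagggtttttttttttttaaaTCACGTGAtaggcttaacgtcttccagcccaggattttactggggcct
Atp6v0e: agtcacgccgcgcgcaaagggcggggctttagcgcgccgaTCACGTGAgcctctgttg

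The membrane proteins were led by Lamp1. Lamp1 stood at 13515, 13432 and 14633 normalized counts in UK-5099 replicates 1, 2 and 3 and at 21836, 21565 and 22239.9 in 3-inhibitor replicates 1, 2 and 3. All UK-5099 libraries stood below all 3-inhibitor libraries, with a log2 difference of -0.66 ± 0.04 (SE; limma adjusted p = 2.84e-07), or 1.58-fold lower. Per kb of exon, the scale used wherever levels of different genes are compared, Lamp1 was the highest of the lysosome genes, at 5181 and 8180 normalized counts per kb. Lamp2, the related glycoprotein that also serves chaperone-mediated autophagy, behaved otherwise. In UK-5099 replicates 1, 2 and 3 Lamp2 had 10607, 10849.8 and 10383 normalized counts, against 10347, 10236 and 10096 in the 3-inhibitor replicates. The UK-5099 values lay just above the 3-inhibitor ones, and the log2 difference of 0.05 ± 0.04 did not pass (adjusted p = 0.263); after centring on the median its sign turned, to -0.04.

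Mcoln1, the calcium-releasing cation channel of the lysosomal membrane, was lower. Normalized counts of Mcoln1 were 964, 926 and 1118 in the UK-5099 libraries and 1288, 1273 and 1295 in the 3-inhibitor libraries. The groups were apart, UK-5099 replicate 3 being nearest to the other group, and the log2 difference was -0.36 ± 0.07 (limma adjusted p = 0.000736). Scarb2, the membrane receptor that carries glucocerebrosidase to the lysosome, differed by little. The UK-5099 libraries held 4286, 4379 and 4427 normalized counts of Scarb2, and the 3-inhibitor libraries 4928, 4764 and 4699. The groups did not overlap, with a log2 difference of -0.14 ± 0.04 (adjusted p = 0.0114), but the call was lost without UK-5099 replicate 1 (adjusted p = 0.0501), without 3-inhibitor replicate 1 (0.0609) and in limma without a trend (0.0513).

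Both transcription factors were lower, Tfeb more so. Across replicates 1, 2 and 3, Tfeb reached 169, 143 and 139 normalized counts under UK-5099, against 283, 233 and 228 under the 3 inhibitors. Every UK-5099 library stood below every 3-inhibitor library, 3-inhibitor replicate 1 being the highest of all, and the log2 difference was -0.72 ± 0.12 (limma adjusted p = 0.000364), or 1.65-fold lower. Tfe3 stood at 1239, 1191 and 1315 normalized counts in UK-5099 replicates 1, 2 and 3 and at 1429.7, 1342 and 1495 in 3-inhibitor replicates 1, 2 and 3. The Tfe3 groups lay close together without overlap, and the log2 difference of -0.19 ± 0.06 (adjusted p = 0.0155) missed the threshold without UK-5099 replicate 1 (0.0508), 3-inhibitor replicate 1 (0.0505) or 3-inhibitor replicate 3 (0.0814) and in limma without a trend (0.0606). Per kb, Tfe3 was the more abundant of the pair, at 135 and 154 normalized counts per kb against 26.5 and 43.8 for Tfeb. Of the other members of the family, Mitf stood the other way, at 117 ± 15.2 normalized counts in the UK-5099 libraries against 67.7 ± 10.2 in the 3-inhibitor libraries (SD, n = 3), a log2 difference of 0.79 ± 0.16 (adjusted p = 0.00163), and Tfec was at 0 in every library. mRNA levels do not show where these factors were in the cell or whether they were active.

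**Figure D1:**
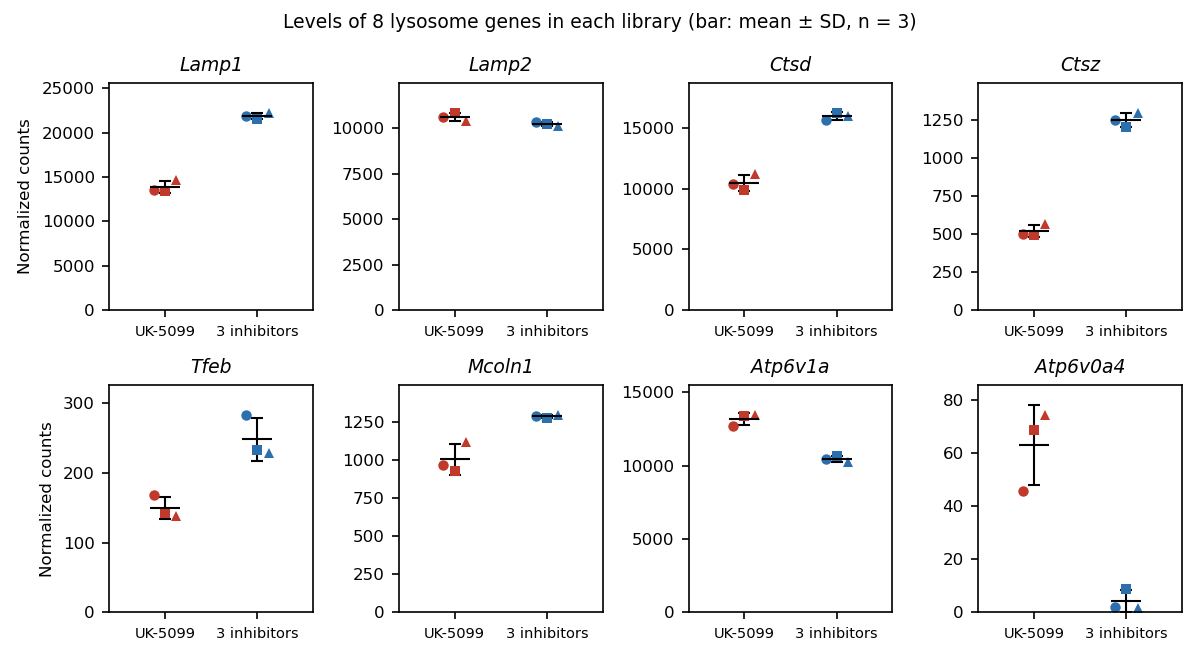
Normalized counts (vertical axes, each from 0) of 8 lysosome genes in each library, with UK-5099 in red and 3 inhibitors in blue, circles, squares and triangles for replicates 1, 2 and 3, and bars for the mean ± SD (n = 3). The groups were apart in each panel, lower with UK-5099 for Lamp1, Ctsd, Ctsz, Tfeb and Mcoln1 and higher for Atp6v1a and Atp6v0a4, and for Lamp2 the gap was the smallest of the 8 and did not pass the test.

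Cathepsins were lower or did not pass. Of 18 cathepsin genes 9 were tested, of which 7 were lower, none higher and 2 did not pass, with a median log2 difference of -0.59. The lower genes were 77.8% of those tested, against 26.6% of all genes tested. Ctsz, a carboxypeptidase also called cathepsin X, differed most. In UK-5099 replicates 1, 2 and 3 Ctsz had 499.9, 497 and 563 normalized counts, against 1248, 1200.2 and 1296 in the 3-inhibitor replicates. Every 3-inhibitor library was above every UK-5099 library, with a log2 difference of -1.26 ± 0.06 (limma adjusted p = 3.18e-08), or 2.40-fold lower.

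The abundant proteases were lower by similar amounts. Normalized counts of Ctsd were 10348, 9879 and 11168 in the UK-5099 libraries and 15676, 16261 and 16023 in the 3-inhibitor libraries. This aspartic protease was apart between the groups, 1.53-fold lower (log2 difference -0.61 ± 0.05, adjusted p = 9.43e-07, limma). The UK-5099 libraries held 10469.9, 9900.4 and 11072 normalized counts of Ctsb, and the 3-inhibitor libraries 15489, 16196 and 15771. The cysteine protease Ctsb was likewise apart, 1.51-fold lower (log2 difference -0.60 ± 0.05, adjusted p = 9.42e-07).

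Across replicates 1, 2 and 3, Ctsh reached 2350.0, 2287 and 2511 normalized counts under UK-5099, against 3421, 3678 and 3634 under the 3 inhibitors. Ctsh, an aminopeptidase, was 1.50-fold lower with no overlap (log2 difference -0.59 ± 0.05, adjusted p = 1.4e-06, limma). Ctsa stood at 1981, 1892 and 2265 normalized counts in UK-5099 replicates 1, 2 and 3 and at 3248, 3091 and 3291 in 3-inhibitor replicates 1, 2 and 3. Ctsa, the serine carboxypeptidase that protects beta-galactosidase and neuraminidase in the lysosome, was 1.57-fold lower, again with no overlap (log2 difference -0.65 ± 0.06, adjusted p = 4.44e-06). Ctsl, a cysteine endopeptidase, and Ctsc, which activates granule proteases of immune cells, were lower by less, with log2 differences of -0.38 ± 0.04 and -0.22 ± 0.04 (adjusted p = 6.26e-06 and 0.000848). The low genes Ctsf and Ctso overlapped between the groups (log2 differences -0.37 ± 0.27 and -0.02 ± 0.12, adjusted p = 0.282 and 0.917). Per kb the order with UK-5099 was Ctsd (4451 and 6800), Ctsb (1732 and 2614), Ctsl (1447 and 1885), Ctsc (682 and 796), Ctsh (530 and 795), Ctsa (434 and 681), Ctsz (361 and 866), Ctso (29.4 and 29.8) and Ctsf (5.65 and 7.30) normalized counts per kb in the UK-5099 and the 3-inhibitor libraries. With the 3 inhibitors Ctsz ranked above Ctsc, Ctsh and Ctsa.

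Cathepsins of other tissues were at or near 0. The placental cathepsins Ctsj, Ctsm, Ctsq and Ctsr and the neutrophil protease Ctsg were at 0 in every library. Ctss of antigen-presenting cells had 0 reads with UK-5099 and 2 with the 3 inhibitors, Ctsw of cytotoxic lymphocytes 7 and 8, the aspartic protease Ctse 2 and 6, and Ctsk of osteoclasts 13 and 29. Together the cathepsin genes took 0.164% ± 0.00515 of all normalized counts in the UK-5099 libraries and 0.236% ± 0.00583 with the 3 inhibitors (SD, n = 3), the UK-5099 libraries lying between 0.160% and 0.170% and the 3-inhibitor libraries between 0.229% and 0.240%.

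Reads of neighbours may enter these counts, since the strand setting of the counting is not given in the sources used here. In the GENCODE M21 gene models (GRCm38), 12.8% of the exonic bases of Ctsb are shared with Fdft1 on the opposite strand, and 10.5% of those of Ctsa with Pltp. Both neighbours were higher with UK-5099, Fdft1 by 0.22 and Pltp by 1.04 on the log2 scale. Ctsd shares 34.37% of its exonic bases with Gm49369 on the same strand, and Ctsl 26.85% with Gm47123 on the opposite strand. Both of these neighbours had a mean of 0. Whether shared bases changed the values of the cathepsins was not tested. Lamp1 shares 9.31% of its exonic bases with the opposite-strand gene Grtp1, which had a mean of 178 normalized counts.

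**Figure D2:**
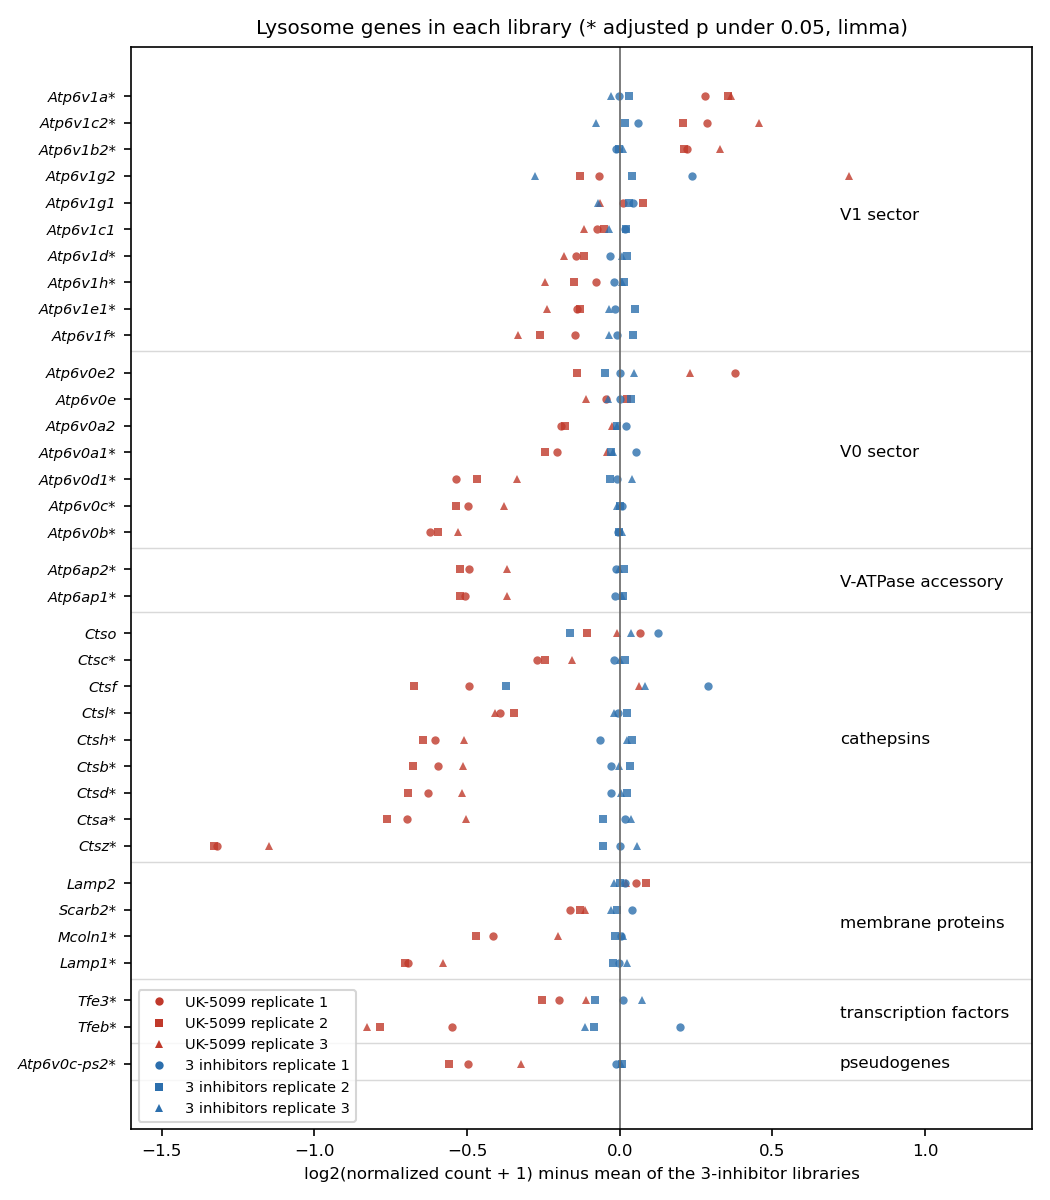
Log2(normalized count + 1) of each tested lysosome gene in each library, minus the mean of the 3-inhibitor libraries (horizontal axis), with UK-5099 in red, 3 inhibitors in blue and symbols for replicates. Genes are grouped by role and an asterisk marks an adjusted p under 0.05 (limma). Atp6v0a4 is left out because its log2 difference of 3.83 lies beyond the axis. Cathepsin and V0 points of UK-5099 lie mostly left of 0, and those of Atp6v1a, Atp6v1b2 and Atp6v1c2 lie to the right.

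The V-ATPase subunits went in both directions. In the V1 sector 10 of 13 genes were tested, with 3 higher, 4 lower and 3 not passing (median log2 difference -0.04), and in the V0 sector 8 of 9 were tested, with 1 higher, 4 lower and 3 not passing (median -0.15). Higher genes were 30% of the V1 genes tested and 12.5% of the V0 genes, against 27.2% of all genes tested, and lower genes were 40% and 50%, against 26.6%. The higher V0 gene, Atp6v0a4, reached the mean for testing only through the UK-5099 group. V1 genes took 0.172% ± 0.00255 of all normalized counts in the UK-5099 libraries and 0.162% ± 0.00243 with the 3 inhibitors, while V0 genes took 0.0866% ± 0.00347 and 0.111% ± 0.00123 (SD, n = 3). In both sectors the ranges of the groups were apart, V1 from 0.170% to 0.175% against 0.159% to 0.164% and V0 from 0.0840% to 0.0905% against 0.111% to 0.113%. Without Atp6v1a, the V1 genes took 0.117% ± 0.00190 and 0.118% ± 0.00165 (SD, n = 3), and the groups overlapped. Whether the sectors differed from each other was not tested.

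Atp6v1a encodes the catalytic A subunit. In UK-5099 replicates 1, 2 and 3 Atp6v1a had 12683, 13380.5 and 13463 normalized counts, against 10442, 10691 and 10246 in the 3-inhibitor replicates. All UK-5099 libraries were above all 3-inhibitor libraries, 1.26-fold higher (log2 difference 0.33 ± 0.04, limma adjusted p = 3.3e-05). Its partner in the catalytic ring is the B subunit, here Atp6v1b2. Normalized counts of Atp6v1b2 were 5918, 5875 and 6382 in the UK-5099 libraries and 5040.4, 5077 and 5123 in the 3-inhibitor libraries. It was 1.19-fold higher, with no overlap (log2 difference 0.25 ± 0.04, adjusted p = 0.000369). The other B isoform, Atp6v1b1 of kidney and ionocytes, had 2 reads with UK-5099 and 10 with the 3 inhibitors.

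The C subunit bridges the stator stalks and the membrane sector, and comes as Atp6v1c1 and Atp6v1c2. The UK-5099 libraries held 2249, 2131 and 2529.6 normalized counts of Atp6v1c2, and the 3-inhibitor libraries 1922, 1867 and 1747. Atp6v1c2 was higher without overlap (log2 difference 0.32 ± 0.06, limma adjusted p = 0.00131), whereas Atp6v1c1 had a log2 difference of -0.08 ± 0.04 (adjusted p = 0.121). Per kb the ratio of Atp6v1c2 to Atp6v1c1 was 2.16 with UK-5099 and 1.63 with the 3 inhibitors. Before division by length the order was the reverse. Mean normalized counts of Atp6v1c2 and Atp6v1c1 were 2303 and 2752 with UK-5099, and 1845 and 2910 with the 3 inhibitors. The order per kb thus rests on the exon lengths used, 2.17 kb and 5.60 kb. The difference of the log2 ratios was 0.40, with no overlap between the groups. The exact two-sided permutation p was 0.1, the smallest that 3 against 3 libraries can give (0.2 after Benjamini-Hochberg adjustment over 6 ratios). These 6 include the ratios of Atp6v0a4 to Atp6v0a1 and to Atp6v0a2. Atp6v0a4 reached the mean for testing only through the UK-5099 group, and the adjusted p-values of the other ratios depend on counting it. Atp6v1c2 shares 50 exonic bases, 2.30% of its own, with Pdia6 on the opposite strand, which had a log2 difference of 0.07 ± 0.05 (adjusted p = 0.266).

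The rotor and stalk genes of V1 went the other way or did not pass. Across replicates 1, 2 and 3, Atp6v1f reached 1989, 1838 and 1750.2 normalized counts under UK-5099, against 2191, 2271 and 2153 under the 3 inhibitors. This rotor subunit was 1.19-fold lower without overlap (log2 difference -0.25 ± 0.05, limma adjusted p = 0.00196). Atp6v1e1 stood at 4131, 4165 and 3861 normalized counts in UK-5099 replicates 1, 2 and 3 and at 4506, 4720.2 and 4443 in 3-inhibitor replicates 1, 2 and 3. Atp6v1e1, of the peripheral stalks, was 1.12-fold lower, also without overlap (-0.17 ± 0.04, adjusted p = 0.00718). The rotor gene Atp6v1d and the regulatory Atp6v1h had log2 differences of -0.15 ± 0.04 and -0.16 ± 0.05 (adjusted p = 0.00759 and 0.0147); the call of Atp6v1h was lost without 3-inhibitor replicate 2 (0.0581) or 3 (0.0504) and in limma without a trend (0.0703). The stalk isoforms Atp6v1g1 and Atp6v1g2 did not pass (0.01 ± 0.05 and 0.19 ± 0.30, adjusted p = 0.914 and 0.634), and both signs depended on scaling or on a single library. Atp6v1e2 and Atp6v1g3 were at 0 in every library. Atp6v1fnb, named for being a neighbour of Atp6v1f, had 0 reads with UK-5099 and 2 with the 3 inhibitors.

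In the V0 sector the proteolipid ring genes were lower. In UK-5099 replicates 1, 2 and 3 Atp6v0b had 2933, 2987 and 3124 normalized counts, against 4495, 4507 and 4534 in the 3-inhibitor replicates. The groups were wide apart for this ring subunit, 1.50-fold lower (log2 difference -0.58 ± 0.04, limma adjusted p = 3.38e-07). Normalized counts of Atp6v0c were 7789, 7589 and 8447 in the UK-5099 libraries and 11041, 11004 and 10936 in the 3-inhibitor libraries. Atp6v0c, the main proteolipid, was 1.39-fold lower without overlap (log2 difference -0.47 ± 0.05, adjusted p = 4.65e-06). Its values are uncertain, because the pseudogene Atp6v0c-ps2 is 99.8% identical to the Atp6v0c transcript over 465 bases and held 20.7% to 21.9% of the parent's normalized counts in every library. Atp6v0c-ps2 itself had a log2 difference of -0.46 ± 0.06 (adjusted p = 4.26e-05), close to that of the parent, and reads of the pair cannot be told apart in this table. Atp6v0c-ps1, 97.2% identical, had 2 reads with UK-5099 and 29 with the 3 inhibitors.

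The UK-5099 libraries held 2388, 2501 and 2744 normalized counts of Atp6v0d1, and the 3-inhibitor libraries 3444, 3387 and 3558. Atp6v0d1, which couples the rotor to the ring, was lower with no overlap (log2 difference -0.45 ± 0.05, limma adjusted p = 2.5e-05). Its isoform Atp6v0d2, known from osteoclasts, had 1 read and 2 reads in the groups. The small subunit Atp6v0e and its isoform Atp6v0e2 overlapped between the groups (-0.04 ± 0.05 and 0.16 ± 0.27 on the log2 scale, adjusted p = 0.473 and 0.66).

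The a subunit, which holds the proton channel and steers the pump to its membrane, has several isoforms, and Atp6v0a4 had the largest log2 difference of the 36 genes. Across replicates 1, 2 and 3, Atp6v0a4 reached 45.7, 68.7 and 74.3 normalized counts under UK-5099, against 2.06, 8.94 and 1.83 under the 3 inhibitors. All UK-5099 libraries were far above the 3-inhibitor libraries, and the log2 difference of 3.83 ± 0.47 (limma adjusted p = 3.04e-05) corresponds to 14.2-fold on the scale of log2(normalized count + 1). It rests on 180 reads with UK-5099 and 14 with the 3 inhibitors, it passed the low filter only through the UK-5099 group, and the log2 difference was 4.41 without 3-inhibitor replicate 2 and 2.93 with a pseudocount of 5. Atp6v0a4 is the isoform of kidney intercalated cells and other proton-secreting cells.

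Against the common isoforms it stayed rare. Atp6v0a1 stood at 3382, 3289 and 3784 normalized counts in UK-5099 replicates 1, 2 and 3 and at 4039.5, 3817 and 3839 in 3-inhibitor replicates 1, 2 and 3. Atp6v0a1 was lower by little and without overlap (log2 difference -0.16 ± 0.05, limma adjusted p = 0.0241), and this call was lost without UK-5099 replicate 1 (0.0957) or 2 (0.0736), without 3-inhibitor replicate 1 (0.1003) or 3 (0.0521) and in limma without a trend (0.103). Atp6v0a2 had a log2 difference of -0.13 ± 0.05 and did not pass (adjusted p = 0.0581), but passed without UK-5099 replicate 3 (0.0027). Per kb, Atp6v0a4 amounted to 2.37% of Atp6v0a1 with UK-5099 and to 0.146% with the 3 inhibitors. The log2 ratio differed by 3.99 (exact permutation p = 0.1, adjusted 0.2). Against Atp6v0a2 the shares were 6.25% and 0.391%, and the log2 ratio differed by 3.96 (exact permutation p = 0.1, adjusted 0.2). Both ratios were taken because Atp6v0a4 passed the low filter, which it did only through the UK-5099 group. Their directions and p-values are therefore no separate support. The ratio of Atp6v0a2 to Atp6v0a1 differed by 0.03 on the log2 scale (exact permutation p = 0.5, adjusted 0.6), those of Atp6v0e2 to Atp6v0e by 0.20 (exact p = 0.4, adjusted 0.6) and of Atp6v1g2 to Atp6v1g1 by 0.18 (exact p = 0.8, adjusted 0.8). The remaining a isoform, Tcirg1, is outside the naming rule and was looked up after the values were seen: it stood at 539.8 ± 20.2 normalized counts in the UK-5099 libraries against 661 ± 22.0 in the 3-inhibitor libraries (SD, n = 3), a log2 difference of -0.29 ± 0.06 (adjusted p = 0.00179).

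Markers of ionocytes were mostly too low to test. Of 6 marker genes 2 were tested and both were lower with UK-5099, Cftr at 68.9 ± 2.08 normalized counts in the UK-5099 libraries against 131 ± 24.8 in the 3-inhibitor libraries (SD, n = 3) (log2 difference -0.90 ± 0.16, limma adjusted p = 0.000573) and P2ry14 with a log2 difference of -0.79 ± 0.30 (adjusted p = 0.0452). The 6 genes summed to 86.5 to 103 normalized counts in the UK-5099 libraries and 145 to 193 with the 3 inhibitors, largely through Cftr. Foxi1, the transcription factor that defines ionocytes, was at 0 in all 6 libraries. Too low to test, Moxd1 had 14 reads with UK-5099 and 6 with the 3 inhibitors, Ascl3 8 and 20, and Stap1 0 and 4. Whether ionocytes have a part in the Atp6v0a4 difference was not tested. Atp6v0a4 also shares 5.21% of its exonic bases with D630045J12Rik on the same strand, whose own log2 difference was -0.30 ± 0.18 (adjusted p = 0.2).

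**Figure D3:**
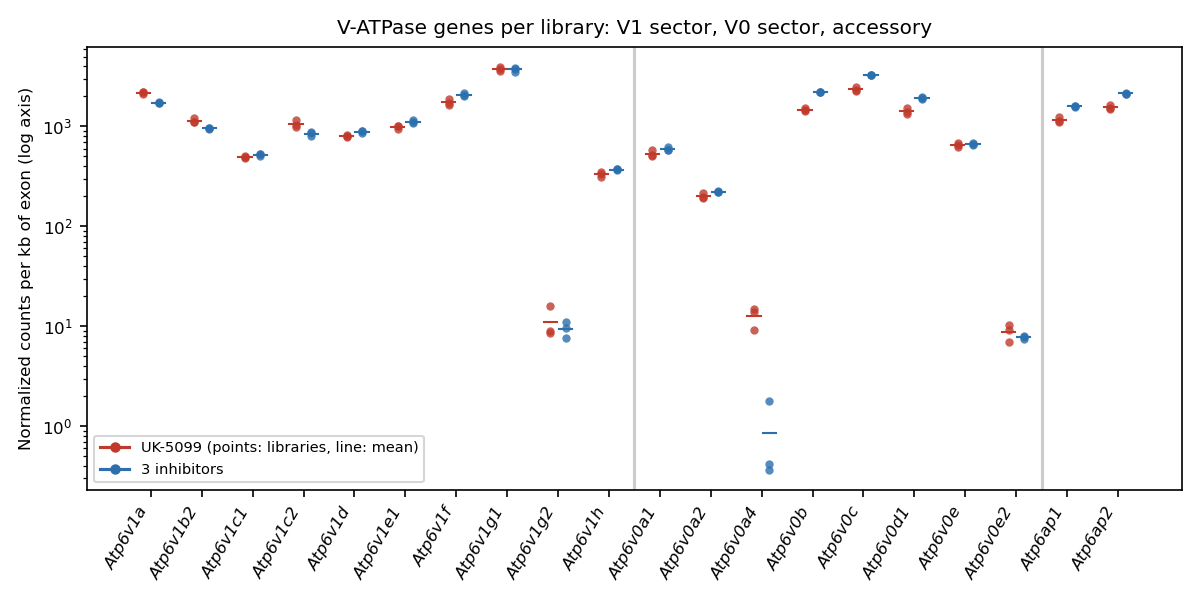
Normalized counts per kb of exon (log axis) of the 20 tested V-ATPase genes, for V1, V0 and accessory genes from left to right, with UK-5099 in red, 3 inhibitors in blue, points for libraries and lines for group means. All other genes shown lie within 1.5-fold between the groups, while Atp6v0a4 stands apart at a mean of 12.6 against 0.860 per kb, and the isoform genes Atp6v1g2 and Atp6v0e2 lie at 11.1 and 8.82 per kb with UK-5099 and at 9.45 and 7.79 with the 3 inhibitors.

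The accessory subunits, which guide assembly of the pump, were both lower. In UK-5099 replicates 1, 2 and 3 Atp6ap1 had 3389, 3352 and 3729 normalized counts, against 4764, 4852 and 4841 in the 3-inhibitor replicates. Normalized counts of Atp6ap2 were 3977, 3894 and 4328 in the UK-5099 libraries and 5548, 5656 and 5585 in the 3-inhibitor libraries. In both genes the groups were apart, with UK-5099 replicate 3 the highest of its group, and the log2 differences were -0.47 ± 0.05 and -0.46 ± 0.05 (limma adjusted p = 6.55e-06 and 5.9e-06). Both are on the X chromosome. Atp6ap1l was at 0 in every library.

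Related genes outside the naming rule were read from lists of the lysosome and its neighbours. Soluble lysosomal hydrolases and their activators shared the direction of the cathepsins: of 42 tested, 32 were lower, 3 higher and 7 did not pass (median log2 difference -0.36). Lower genes were 76.2% of this list and higher genes 7.14%, against 26.6% and 27.2% of all genes tested. Galc, which cleaves galactosylceramide, stood at 234 ± 12.8 normalized counts in the UK-5099 libraries against 735 ± 47.9 in the 3-inhibitor libraries (SD, n = 3) (log2 difference -1.65 ± 0.08, limma adjusted p = 1.81e-08). The peptidase Dpp7 and the ganglioside hexosaminidase gene Hexa had log2 differences of -1.25 ± 0.07 and -0.86 ± 0.05. Ggh, a hydrolase of folate polyglutamates, stood the other way at 694 ± 23.8 normalized counts in the UK-5099 libraries against 315 ± 19.9 in the 3-inhibitor libraries (SD, n = 3) (1.14 ± 0.07, adjusted p = 1.64e-07).

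Among 33 further lysosomal membrane proteins and transporters 30 were tested, with 22 lower, 1 higher and 7 not passing (median log2 difference -0.35). Lower genes were 73.3% and higher genes 3.33% of those tested, against 26.6% and 27.2% of all genes tested. The sialomucin Cd164, the tetraspanin Cd63, the Batten disease gene Cln3 and the glycoprotein gene Glmp had log2 differences of -0.66 ± 0.04, -0.54 ± 0.04, -0.94 ± 0.07 and -0.66 ± 0.05. Genes that deliver enzymes to the lysosome were lower in 11 of 14 cases, or 78.6%, and higher in none (median -0.31). Igf2r, the large receptor for mannose 6-phosphate, which carries tagged hydrolases from the Golgi, stood at 6361 ± 519 normalized counts in the UK-5099 libraries against 14467 ± 420.3 in the 3-inhibitor libraries (SD, n = 3) (log2 difference -1.19 ± 0.06, limma adjusted p = 1.62e-08). The other mannose 6-phosphate receptor, M6pr, had a log2 difference of -0.01 ± 0.04 (adjusted p = 0.806); it was named after its value was seen. The sorting receptor Sort1, the progranulin gene Grn and the sulfatase activator Sumf1 were lower, with log2 differences of -1.46 ± 0.10, -0.80 ± 0.05 and -0.51 ± 0.05.

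V-ATPase assembly and regulation genes were divided: of 13 genes 11 were tested, 5 lower, 2 higher and 4 not passing (median -0.00). In percent, 45.5% were lower and 18.2% higher, against 26.6% and 27.2% of all genes tested. The lower genes with the smallest adjusted p were Tbc1d24 and Oxr1, which carry the TLDc domain known from V-ATPase regulators, with log2 differences of -1.30 ± 0.12 and -0.35 ± 0.04, and Wdr7 and Dmxl1, partners in the complexes that reassemble the pump, with -0.49 ± 0.05 and -0.39 ± 0.04. Other TLDc genes of the list, named after their values were seen, were Meak7, which was higher (0.39 ± 0.09, adjusted p = 0.00372, limma), and Ncoa7, which did not pass (0.02 ± 0.11, adjusted p = 0.896), while Tldc2 was too low to test. Of 21 genes of mTORC1 control at the lysosome, 9 were lower, 3 higher and 9 did not pass (median -0.11). Here 42.9% were lower and 14.3% higher, against the same shares of all genes tested. The Rag GTPase genes Rragc and Rragd, which recruit mTORC1 to the lysosome, had log2 differences of -0.62 ± 0.04 and -1.09 ± 0.07, and the Ragulator gene Lamtor3 one of -0.35 ± 0.04. Rraga and Rragb, also Rag genes and named after their values were seen, did not pass (-0.03 ± 0.04 and -0.87 ± 0.36, adjusted p = 0.603 and 0.0579, limma). Of the other Ragulator genes, looked up after their values were seen, Lamtor2 was higher (0.46 ± 0.06, adjusted p = 5.44e-05, limma), and Lamtor1, Lamtor4 and Lamtor5 did not pass. Rheb, the GTPase that activates mTORC1 there, was higher, at 3459.8 ± 63.2 normalized counts in the UK-5099 libraries against 2475 ± 98.5 in the 3-inhibitor libraries (SD, n = 3) (0.48 ± 0.04, limma adjusted p = 2.65e-06).

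Of 26 autophagy genes, 16 were lower, 1 higher and 9 did not pass (median -0.30). Lower genes were 61.5% and higher genes 3.85% of this list, against 26.6% and 27.2% of all genes tested. Uvrag, a subunit of a PI3-kinase complex of vesicle maturation, stood at 1529 ± 17.4 normalized counts in the UK-5099 libraries against 3176 ± 98.0 in the 3-inhibitor libraries (SD, n = 3) (log2 difference -1.05 ± 0.04, limma adjusted p = 5.38e-09). Map1lc3b and Gabarap, which coat autophagosomes, and the cargo receptor Sqstm1 had log2 differences of -0.77 ± 0.05, -0.38 ± 0.04 and -0.50 ± 0.04. Cystatins, the protein inhibitors of cysteine cathepsins, went in both directions, with 4 of 11 genes tested. Cst6 and Csta1, cystatins of squamous epithelium, were higher, at 1139 ± 43.5 normalized counts in the UK-5099 libraries against 357 ± 11.6 in the 3-inhibitor libraries (SD, n = 3) and 335 ± 34.1 normalized counts in the UK-5099 libraries against 97.5 ± 19.4 in the 3-inhibitor libraries (SD, n = 3), while Cst3 and Cstb were lower, with log2 differences of -0.74 ± 0.06 and -0.46 ± 0.05.

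**Figure D4:**
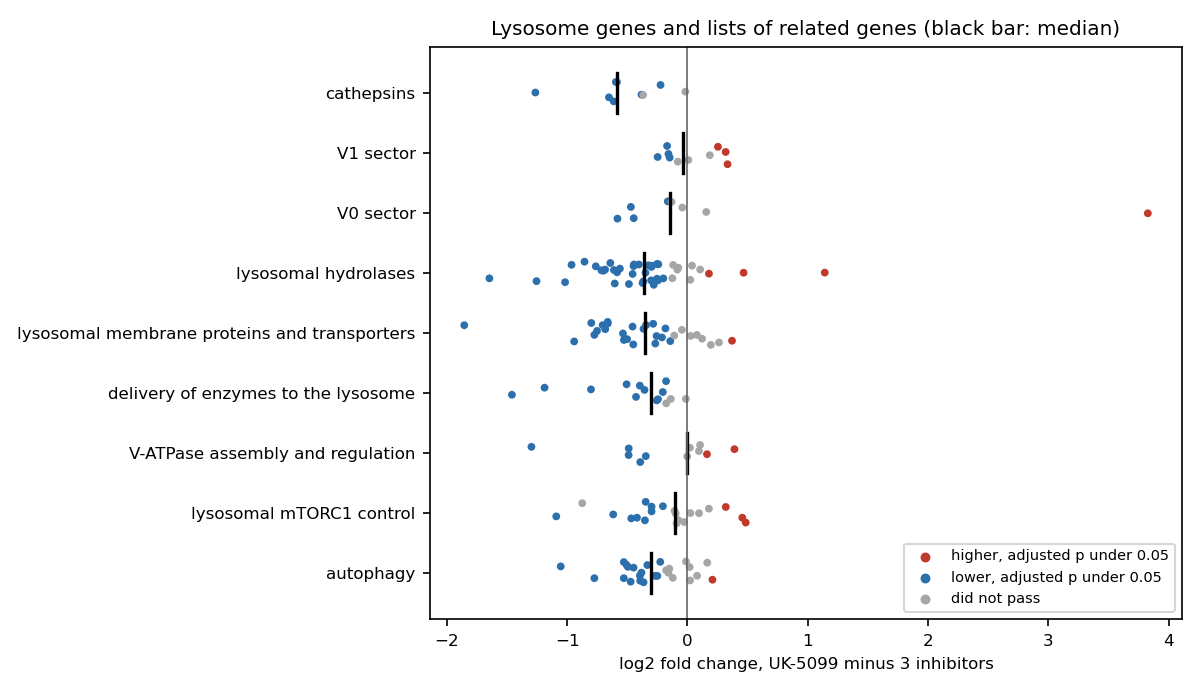
Log2 difference, UK-5099 minus 3 inhibitors (horizontal axis), of each tested gene of the cathepsins, the V1 and V0 sectors and 6 lists of related genes, with red for higher and blue for lower at an adjusted p under 0.05 (limma), grey for genes that did not pass, and a black bar for the median. The medians of cathepsins, hydrolases, membrane proteins, delivery genes and autophagy genes lie between -0.59 and -0.30, and those of the V1 sector and V-ATPase assembly genes at -0.04 and -0.00.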

How the data were processed

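RNA was sequenced from 6 libraries in 2 groups of 3. Per the labels' protocols, libraries were made from total RNA with the VAHTS Universal V8 kit. HISAT2 2.1.0, DESeq2 1.36.0 and the build GRCm39 appear, with no roles, in the submitters' processing notes. How and on which strand and annotation reads were counted is not given in the sources used here. Values the authors deposited are in a unit other than raw counts: each is a gene's count after division by its library's size factor, on a log2 scale, and a count of 0 appears as a text mark.

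The values were raised back to normalized counts, with the mark read as 0. After 359 repeated identifiers were dropped, 56748 genes remained. Values were whole multiples of what 1 read is worth for at least 99.988% of nonzero entries per library (within 0.02 of a whole number), which gave the read numbers. Genes with a mean of at least 10 were fitted on log2(normalized count + 1) with limma 3.58.1 in R 4.3.3 (eBayes with trend, two-sided, no covariates), adjusted over all 15704 genes. The median standard error was 0.0858. The limma step was tested on simulated counts, in which far fewer genes differed than were called here. Paralogue ratios were compared by an exact permutation test. Since the table holds normalized values, the planned branch for raw counts was not used.

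The lysosome genes and the lists were chosen with earlier results of these data known. Values per library were given for up to 5 genes of each role by smallest adjusted p and for Tfeb, Tfe3, Mcoln1, Lamp1, Lamp2 and Scarb2. Up to 4 called genes were named from each list. Levels per kb use exon unions of GENCODE M21 (GRCm38), which serve only for lengths and neighbours. Promoter coordinates belong to the RefSeq table's build, GRCm38.p6, not to the build in the notes. Alternatives were other scalings, filters, pseudocounts and limma settings, a replicate block, each library left out in turn, and, chosen after seeing the data, limma-voom on recovered reads. Other steps used pandas 2.3.3, scipy 1.17.1 and matplotlib 3.10.9 under Python 3.11.15.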

Additional observations from a re-analysis of the deposited data

How the results depend on the processing

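Of the 27 lysosome genes called, 23 were called in every one of the 16 alternatives that tested them. The exceptions were Atp6v0a1, Atp6v1h, Scarb2 and Tfe3, lost in 5, 3, 3 and 4 alternatives. Adjusted p ranged from 0.000188 to 0.103, 0.000883 to 0.0703, 0.000395 to 0.0609 and 0.00159 to 0.0814 (limma). Of the 9 genes that had not passed, 3 passed in at least 1 alternative: Atp6v0a2 in median centring, limma-voom and without UK-5099 replicate 3, and Atp6v0e and Atp6v1c1 in median centring. Lower genes numbered 19 without the trend, 20 to 24 with 1 library left out and 26 after median centring, and higher genes numbered 4 except with a minimum mean of 50, where Atp6v0a4 was not tested and 3 were higher. Over all genes, 8449 were called, and 7336 to 9146 with 1 library left out.

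Signs turned for genes that had not passed, and the cause was not tested. The log2 difference of Ctso was 0.0122 after upper-quartile rescaling and ranged from -0.0982 to 0.0453 with 1 library left out, turning without UK-5099 replicate 2 or 3-inhibitor replicate 1 or 3. That of Atp6v1g1 was -0.0814 after median centring and -0.0283 to 0.0433 with 1 library left out, turning without UK-5099 replicate 2 or 3-inhibitor replicate 3. Lamp2 was at -0.0353 after median centring. Atp6v1g2 ranged from -0.0983 to 0.343 and its log2 ratio to Atp6v1g1 from -0.142 to 0.37, both turning without UK-5099 replicate 3.

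With the replicate number as a block, 8423 genes were called, and 23 lysosome genes were lower and 4 higher. Deviations of same-numbered libraries correlated at -0.02, 0.12 and -0.09 across genes, so the numbers were not taken to pair the libraries, and the block changed no call of a lysosome gene. Planned fits of edgeR and DESeq2 to recovered reads were not run, and limma-voom was the only fit to these reads. With 59 to 116 reads per group, Atp6v1g2, Atp6v0e2 and Ctsf had standard errors of 0.27 to 0.30 on the log2 scale, so a difference under 1.5-fold, as in most called genes, was not detectable at this depth.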
